A study of Mus musculus with 6 samples.

Results

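Kinesins are motor proteins that burn ATP to pull along microtubules. The 39 kinesin genes described here are those among 19938 tested mouse genes whose symbol is Kif with a number, alone or followed by a, b or c, or Kifc with a digit. For each gene the probe set with the highest mean over the 6 arrays was used. They were chosen for description because Kif4 and Kif11 were already known to be lower in 1 of the populations, so the differences of these genes, and the count of calls that includes them, are given as a description and support nothing by themselves. By known function, not by values, 12 were placed among mitotic, 14 among transport, 9 among ciliary and 4 among other kinesins. The probe set for Kifc1, a mitotic kinesin that moves toward microtubule minus ends, also names Kifc5b and is therefore not a member.

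Transcripts were measured in primary mouse bone marrow cells that carried neither CD45 nor Ter119, surface markers of leukocytes and red cells, and that carried CD73, an enzyme that makes adenosine. The dissociated tissue was sorted by CD105 (endoglin), with 3 samples of CD73+CD105- cells and 3 of CD73+CD105+ cells, each lysed at sorting and hybridised to its own array. The labels call the replicates biological but give no strain, age, treatment or number of animals. Whether each sample came from its own animals is not known, so a p-value here speaks of the spread among these 6 arrays. Values are RMA log2 expression values per probe set, and each difference is the CD73+CD105+ mean less the CD73+CD105- mean.

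Mitotic kinesins build the spindle, carry chromosomes and cut the dividing cell apart, and their genes are switched on together late in the cell cycle. Transport kinesins move vesicles, mitochondria and other cargo through cells that need not divide. Ciliary kinesins carry parts into primary or motile cilia or act on their length or tip. Through the primary cilium Hedgehog signals reach cartilage and stromal cells. In resting marrow stroma few cells are known to divide, while cartilage precursors of the growth plate do so often.

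CD73+CD105+ samples held less transcript of several mitotic kinesins than CD73+CD105- samples. Kif4, a chromokinesin, was 1.76-fold lower, Kif11, which pushes spindle poles apart, 1.5-fold lower, and Kif14, a motor of cytokinesis, 1.49-fold lower. The median difference was -0.27 over the 12 mitotic kinesins, 0.04 over the 14 transport kinesins and -0.06 over the 9 ciliary ones, beside -0.02 over all genes tested. By limma, 3 of 39 kinesins fell at a Benjamini-Hochberg adjusted p under 0.05, and 0 rose (unadjusted p under 0.05: 10 lower and 2 higher). All 3 were mitotic, and 2 of them, Kif4 and Kif11, are those for which the family was chosen. Over all genes 0.466% fell and 1.35% rose by the same rule, and at an unadjusted p under 0.05 in limma 9.09% were lower and 8.58% higher. With both replicate 1 arrays treated as a batch, 0 kinesins passed in limma, and 0.0301% of all genes fell. In that fit 10 of 39 kinesins had an unadjusted p under 0.05, beside 2461 of all 19938 genes. With the replicate block 1 kinesin passed, Kif4 (0.125% of all genes fell). In bulk samples, fewer cells of a type and less RNA per cell cannot be told apart.

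The upstream sequences of the mitotic kinesins are shown first because they share short motifs that the choice of genes did not use. Genes of the late cell cycle are known to carry the cell cycle homology region, whose usual core is TTTGAA and to which repressing and activating cell cycle complexes bind, and CCAAT boxes, which NF-Y binds. The windows come from RefSeq (GRCm38.p6) and reach from 250 bases before each annotated gene start to 30 after it. Capitals mark TTTGAA and CCAAT on either strand, so TTCAAA and ATTGG are the same motifs read on the other strand. Kif4, at chrX:100625815-100626094 on the plus strand, Kif11, at chr19:37376132-37376411 on the plus strand, and Kif14, at chr1:136467598-136467877 on the plus strand, are the 3 members that passed the threshold. Kif15, at chr9:122950831-122951110 on the plus strand, is shown as a mitotic kinesin that did not pass. Kif16b, at chr2:142901435-142901714 on the minus strand, is shown as the transport kinesin with the highest difference.
Kif4: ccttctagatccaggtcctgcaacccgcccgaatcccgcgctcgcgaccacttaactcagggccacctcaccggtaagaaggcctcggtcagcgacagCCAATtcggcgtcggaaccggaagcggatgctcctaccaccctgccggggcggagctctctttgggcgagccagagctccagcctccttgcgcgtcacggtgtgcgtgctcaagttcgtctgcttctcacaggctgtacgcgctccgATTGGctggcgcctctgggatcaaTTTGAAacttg
Kif11: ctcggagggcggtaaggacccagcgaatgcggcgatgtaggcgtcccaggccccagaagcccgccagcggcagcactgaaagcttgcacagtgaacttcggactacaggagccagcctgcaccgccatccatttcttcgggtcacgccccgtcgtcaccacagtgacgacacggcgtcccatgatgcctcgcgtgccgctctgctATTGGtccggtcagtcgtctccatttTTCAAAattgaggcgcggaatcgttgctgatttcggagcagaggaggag
Kif14: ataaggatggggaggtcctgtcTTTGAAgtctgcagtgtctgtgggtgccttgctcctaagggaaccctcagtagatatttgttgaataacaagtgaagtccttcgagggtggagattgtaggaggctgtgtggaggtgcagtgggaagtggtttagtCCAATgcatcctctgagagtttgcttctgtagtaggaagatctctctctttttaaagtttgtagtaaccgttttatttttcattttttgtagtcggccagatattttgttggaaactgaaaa
Kif15: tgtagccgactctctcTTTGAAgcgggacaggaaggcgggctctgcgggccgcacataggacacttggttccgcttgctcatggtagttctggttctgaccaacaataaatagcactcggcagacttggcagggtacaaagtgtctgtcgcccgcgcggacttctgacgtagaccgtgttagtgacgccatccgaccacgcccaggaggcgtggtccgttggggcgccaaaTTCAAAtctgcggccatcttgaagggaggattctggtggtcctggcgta
Kif16b: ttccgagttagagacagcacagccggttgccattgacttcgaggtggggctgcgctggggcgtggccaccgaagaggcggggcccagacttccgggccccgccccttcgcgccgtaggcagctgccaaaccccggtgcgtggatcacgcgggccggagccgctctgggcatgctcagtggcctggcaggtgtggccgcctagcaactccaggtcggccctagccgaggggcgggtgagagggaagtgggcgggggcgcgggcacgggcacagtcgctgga

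In Kif4 the TTTGAA began 19 bases downstream of the annotated start and a CCAAT box, read on the other strand, 5 bases upstream of it. The Kif11 window held TTTGAA on the other strand 19 bases upstream and a CCAAT box on the same strand 45 bases upstream. Kif14 had its TTTGAA 228 bases upstream and a CCAAT box 92 bases upstream, so its motif lay far from the start in comparison. Kif15 had TTTGAA 234 bases upstream and, on the other strand, 19 bases upstream, with no CCAAT box in the window. Neither motif stood in the Kif16b window. These are matches of letters in a window and not measured binding sites.

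RefSeq windows were found for 31 of the 39 members and searched over their whole 300 bases. A gene with several annotated starts counted if any window held the motif, and overlapping matches of the 2 motifs were each counted. TTTGAA occurred in 9 of 11 mitotic kinesins (81.8%), in 1 of 8 transport kinesins (Kif1a), in 1 of 8 ciliary kinesins (Kif27) and in 1 of 4 other kinesins (Kif26b). Among all 27025 genes with such windows, 20.2% held it. The mitotic kinesins without it were Kif18a and Kif2b. CCAAT occurred in 7 of 11 mitotic, 1 of 8 transport, 5 of 8 ciliary and 1 of 4 other kinesins, against 41.1% of all genes. Both motifs together occurred in 6 of 11 mitotic, 0 of 8 transport, 1 of 8 ciliary and 1 of 4 other kinesins, against 7.97% of all genes. A TTTGAA that began within 30 bases of the start, a distance chosen after the positions were seen, occurred in 7 of 11 mitotic kinesins (Kif4, Kif11, Kif15, Kif18b, Kif20b, Kif22 and Kif23), in 0 of 8 transport, 0 of 8 ciliary and 1 of 4 other kinesins (Kif26b), and in 3.66% of all genes. The motif did not sort the mitotic kinesins by their difference: Kif22 and Kif20b carried it near the start and differed by -0.08 and -0.20, and Kif14 carried it only far upstream and differed by -0.57. No window was found for Kif20a, Kif19a, Kif5a, Kif5b, Kif13b, Kif21b, Kifc2 and Kifc3.

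The array medians lay between 6.27 and 6.35, and the median standard error of a difference over all genes was 0.09, which the number of arrays limits. Eng, which encodes CD105, stood at 6.20, 6.55 and 6.15 in CD73+CD105- replicates 1, 2 and 3 and at 8.27, 7.79 and 8.12 in CD73+CD105+ replicates 1, 2 and 3, as the sort labels say. The replicate 1 arrays stand apart in a way that no label describes. Averaging both of them gave, gene by gene, almost the average of the remaining 4 arrays: the SD of this gap over genes was 0.0423, against at least 0.122 for the 8 other cross-population pairs of arrays. Differences are therefore also given for replicate 1 alone and for replicates 2 and 3 alone. As a yardstick for unused genes, the means of 1190 odour and pheromone receptor genes had a 95th percentile of 6.01, and 29 of the 39 kinesins had a mean above it.

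Kif4 and Kif11 had the lowest differences of the 39 genes. Kif4, which works with Prc1 at the midzone between separating chromosomes, stood at 8.13, 8.08 and 8.15 in CD73+CD105- replicates 1, 2 and 3 and at 7.14, 7.55 and 7.23 in CD73+CD105+ replicates 1, 2 and 3. All 3 CD73+CD105+ arrays lay below all 3 CD73+CD105- arrays. The means were 8.12 ± 0.04 and 7.31 ± 0.21 (SD, n = 3 each), a difference of -0.81 (SE 0.11). It was -0.99 in replicate 1 and -0.73 in replicates 2 and 3. In limma, Kif4 no longer passed with the batch term for replicate 1 (adjusted p = 0.0542) or when any 1 array other than CD73+CD105+ replicate 2 was left out (0.0517 to 0.08). Kif4-ps, a pseudogene of similar sequence, had a pair of probe sets that differed by -0.21 and 0.06, and their means of 5.12 and 5.15 lay below the receptor gene percentile.

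Kif11, the motor that crosslinks and slides spindle microtubules, stood at 8.48, 8.60 and 8.68 in CD73+CD105- replicates 1, 2 and 3 and at 7.98, 7.84 and 8.18 in CD73+CD105+ replicates 1, 2 and 3. The groups did not overlap, and the means of 8.58 ± 0.10 and 8.00 ± 0.17 (SD, n = 3 each) differed by -0.58 (SE 0.10). The difference was -0.49 in replicate 1 and -0.63 in replicates 2 and 3. In limma, Kif11 no longer passed with the replicate block (adjusted p = 0.0693), the batch term for replicate 1 (0.115), centring on array medians (0.069) or the trended robust prior (0.0502), nor when any 1 array other than CD73+CD105+ replicate 3 was left out (0.0824 to 0.166). Kif15, which keeps the spindle bipolar beside Kif11, stood at 7.00, 7.17 and 6.92 in CD73+CD105- and at 6.51, 6.80 and 6.59 in CD73+CD105+ replicates 1, 2 and 3. Its groups did not overlap either, but its difference of -0.39 (SE 0.10) did not pass in limma (adjusted p = 0.113). Kif22, a chromokinesin that pushes chromosome arms outward, had overlapping groups, at 6.62, 6.65 and 6.53 against 6.43, 6.77 and 6.38, and differed by -0.08 (SE 0.11).

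Among the motors of cytokinesis, Kif14 fell. This motor of the midbody stood at 7.54, 7.53 and 7.71 in CD73+CD105- and at 6.99, 7.15 and 6.92 in CD73+CD105+ replicates 1, 2 and 3, with no overlap. The means of 7.59 ± 0.10 and 7.02 ± 0.12 (SD, n = 3 each) differed by -0.57 (SE 0.09, limma adjusted p = 0.0303), and the difference was -0.55 in replicate 1 and -0.58 in replicates 2 and 3. The Kif14 call was lost with the batch term for replicate 1 (adjusted p = 0.09) and with the replicate block (0.0915). It was also lost when CD73+CD105- replicate 1 (0.0975), 2 (0.0766) or 3 (0.0609) or CD73+CD105+ replicate 1 (0.128) or 3 (0.0912) was left out, and averaging its 2 probe sets gave -0.22 (0.171). The other Kif14 probe set, with a mean of 3.50, differed by 0.14.

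Kif20a, which brings the Aurora B complex to the midzone, stood at 6.95, 6.68 and 6.66 in CD73+CD105- and at 6.10, 6.47 and 6.50 in CD73+CD105+ replicates 1, 2 and 3. The groups were separated, and the difference of -0.41 (SE 0.13) did not pass in limma (adjusted p = 0.183), being -0.86 in replicate 1 and -0.18 in replicates 2 and 3. Kif23, the motor of centralspindlin, stood at 8.20, 8.55 and 8.42 in CD73+CD105- and at 8.16, 7.85 and 8.15 in CD73+CD105+ replicates 1, 2 and 3. Here the replicate 1 arrays nearly met, at a difference of -0.04, while replicates 2 and 3 differed by -0.49, and the difference of -0.34 (SE 0.12) did not pass (limma adjusted p = 0.226). Kif20b, which acts late in cytokinesis, had overlapping groups at 6.81, 7.14 and 7.39 against 6.94, 6.69 and 7.11, and changed sign between replicate 1 (0.13) and replicates 2 and 3 (-0.37).

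Of the 4 motors that shorten microtubules or limit their growth, 0 passed in limma, also at an unadjusted p under 0.05. Kif18a, which damps chromosome movements at the metaphase plate, stood at 6.74, 7.14 and 7.03 in CD73+CD105- and at 6.92, 6.81 and 6.76 in CD73+CD105+ replicates 1, 2 and 3. Its difference of -0.14 (SE 0.11) changed sign between replicate 1 (0.18) and replicates 2 and 3 (-0.30). Kif18b, which trims astral microtubules, stood at 6.37, 6.29 and 6.38 against 6.26, 6.19 and 6.29. The Kif18b groups were separated, but by less than the rounding of these values shows, and the difference of -0.10 (SE 0.07) did not pass (limma adjusted p = 0.473). Kif2c, a depolymerase at centromeres, was at 6.20, 5.98 and 6.03 in CD73+CD105- and at 5.61, 5.55 and 6.42 in CD73+CD105+ replicates 1, 2 and 3, so CD73+CD105+ replicate 3 lay above all CD73+CD105- arrays. Its difference of -0.21 (SE 0.22) was -0.49 without that array but -0.05 without CD73+CD105+ replicate 2. It was -0.58 in replicate 1 and -0.02 in replicates 2 and 3, and the Kif2c mean lay below the receptor gene percentile. Kif2b, a related depolymerase known mostly from testis, was at 5.03, 4.84 and 4.91 against 4.88, 5.52 and 4.57, all below the receptor gene percentile. Of all 12 mitotic kinesins 11 had a difference below 0, as they did after renewed quantile normalization and after median centring, and 7 had separate groups with CD73+CD105+ lower; these counts include Kif4 and Kif11. Among the 10 mitotic kinesins other than Kif4 and Kif11, 9 differences lay below 0 (55.6% of all genes). Separate groups with CD73+CD105+ lower were found for 5 of these 10, against 12.9% of all genes. The difference was below 0 both in replicate 1 and in replicates 2 and 3 for 7 of the 10, against 32.2% of all genes. Their median was -0.21, with -0.17 in replicate 1 and -0.24 in replicates 2 and 3.

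**Figure D1:**
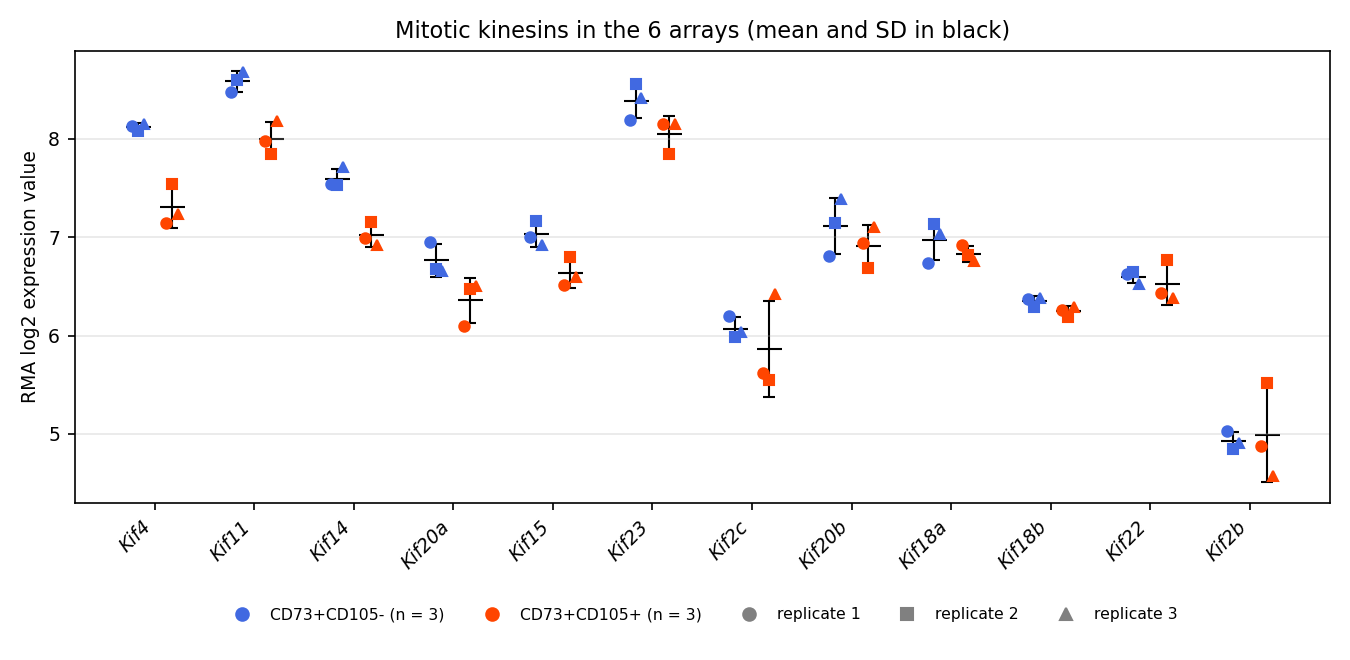
RMA log2 expression values (vertical axis) of the 12 mitotic kinesins in the 3 CD73+CD105- arrays (blue) and the 3 CD73+CD105+ arrays (orange). Marker shapes give the replicate number and black lines the mean and SD. Kif4, Kif11 and Kif14 stand clear of overlap, with Kif4 at 7.14 to 7.55 in CD73+CD105+ against 8.08 to 8.15 in CD73+CD105-, while Kif2c and Kif2b are spread widely in CD73+CD105+.

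Averaged over the 10 mitotic kinesins other than Kif4 and Kif11, the log2 level was 6.75, 6.80 and 6.80 in CD73+CD105- replicates 1, 2 and 3 and 6.48, 6.58 and 6.57 in CD73+CD105+ replicates 1, 2 and 3, so the populations did not overlap. With Kif4 and Kif11 included it was 7.01, 7.05 and 7.07 against 6.66, 6.76 and 6.76. The same average over the 14 transport kinesins was 7.43, 7.39 and 7.46 against 7.44, 7.49 and 7.42, and over the 9 ciliary kinesins 6.56, 6.35 and 6.55 against 6.26, 6.46 and 6.32. In the transport and ciliary classes the arrays of the populations overlapped.

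**Figure D2:**
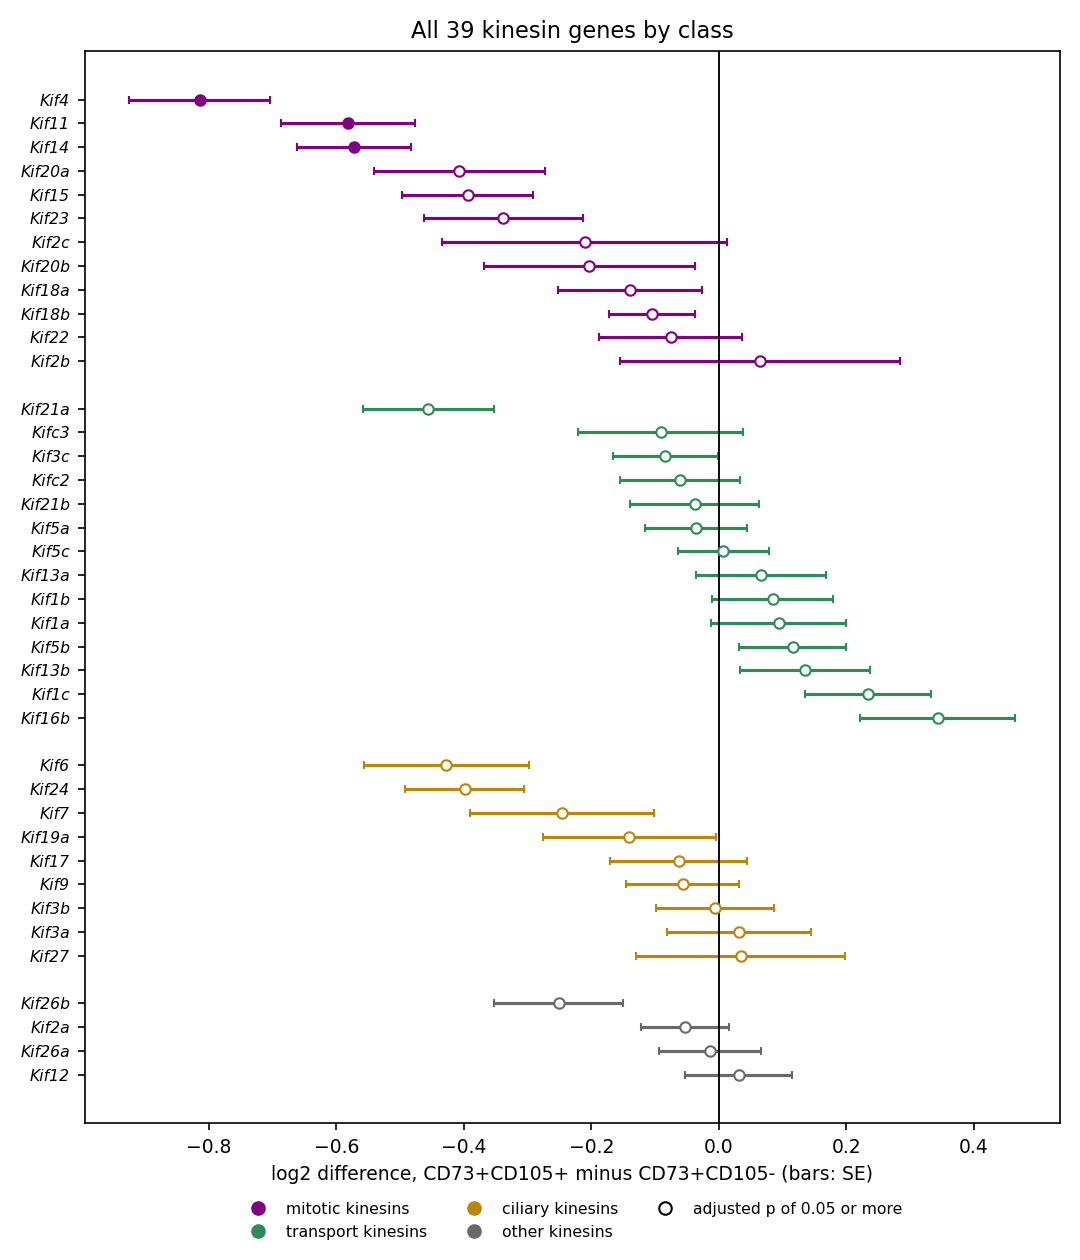
Difference in log2 value, CD73+CD105+ minus CD73+CD105- (horizontal axis), of the 39 kinesin genes grouped by class, with the moderated SE as bars and filled symbols for genes with a limma adjusted p under 0.05. The filled symbols are Kif4, Kif11 and Kif14, all mitotic, while the transport kinesins run from -0.46 for Kif21a to 0.34 for Kif16b.

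Of the 14 transport kinesins 0 passed in limma, and at an unadjusted p under 0.05 there were 2 higher and 1 lower (all genes: 8.58% higher and 9.09% lower). Kif21a, a motor that restrains microtubule growth and is known from nerves of the eye muscles, stood at 9.45, 9.59 and 9.55 in CD73+CD105- and at 9.06, 9.26 and 8.90 in CD73+CD105+ replicates 1, 2 and 3. Its groups did not overlap, and its difference of -0.46 (SE 0.10, limma adjusted p = 0.0818) was the lowest outside the mitotic class. It was -0.39 in replicate 1 and -0.49 in replicates 2 and 3, and without CD73+CD105+ replicate 2 it passed, at -0.55 (adjusted p = 0.048). When any other single array was left out, Kif21a did not pass in limma (adjusted p of 0.138 to 0.257). Nor did it with the replicate block (0.132) or the batch term for replicate 1 (0.198).

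Kif16b, which carries early endosomes, had the highest difference of the 39 kinesins, with 7.26, 7.05 and 7.48 in CD73+CD105- and 7.63, 7.72 and 7.48 in CD73+CD105+ replicates 1, 2 and 3. The replicate 3 arrays met, and the difference of 0.34 (SE 0.12) did not pass (limma adjusted p = 0.209). Kif1c, a fast motor of vesicles, stood at 10.32, 10.53 and 10.53 against 10.80, 10.54 and 10.74 and differed by 0.23 (SE 0.10, limma adjusted p = 0.278), with a second probe set at 0.12. Its groups were separated by a narrow margin. Kif13b, a motor for membrane cargo, was at 8.24, 8.35 and 8.53 against 8.65, 8.47 and 8.41. Its difference of 0.14 rested on replicate 1 (0.41), since replicates 2 and 3 gave -0.0017. Kif5b, the widely expressed heavy chain of conventional kinesin, was at 9.40, 9.43 and 9.56 against 9.57, 9.48 and 9.69, a difference of 0.12 (SE 0.08) with overlapping groups.

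The remaining transport kinesins differed by between -0.09 and 0.09 and had overlapping groups. They were the other heavy chains of conventional kinesin, Kif5a (-0.04) and Kif5c (0.01), the vesicle motors Kif1a (0.09) and Kif1b (0.08), Kif13a (0.07), Kif3c (-0.08), Kif21b (-0.04) and the minus end motors Kifc2 (-0.06) and Kifc3 (-0.09). Kif5a, Kif5c and Kif21b had means below the receptor gene percentile.

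Among the ciliary kinesins 0 of 9 passed in limma, with 2 lower and 0 higher at an unadjusted p under 0.05 (all genes: 9.09% lower and 8.58% higher). Kif6, a motor of motile cilia, stood at 6.30, 6.26 and 6.70 in CD73+CD105- and at 6.01, 6.09 and 5.88 in CD73+CD105+ replicates 1, 2 and 3, without overlap. It differed by -0.43 (SE 0.13, limma adjusted p = 0.154), and its second probe set by -0.21. Kif24, which holds back the growth of cilia by trimming centriolar microtubules, stood at 5.76, 5.60 and 5.57 against 5.11, 5.37 and 5.25, also without overlap. It differed by -0.40 (SE 0.09, limma adjusted p = 0.0893), with all 6 values below the receptor gene percentile.

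Kif7, which sets the tip of the cilium for Hedgehog signalling, was at 7.83, 7.37 and 7.63 in CD73+CD105- and at 7.18, 7.58 and 7.34 in CD73+CD105+ replicates 1, 2 and 3. The groups overlapped, and the difference was -0.65 in replicate 1 but -0.04 in replicates 2 and 3. Kif19a, which limits the length of cilia, was at 6.46, 6.20 and 6.06 against 5.87, 6.22 and 6.21. Kif17, an accessory motor of cilia, was at 5.84, 5.56 and 5.78 against 5.54, 5.82 and 5.62. In both, replicate 1 (-0.59 and -0.30) and replicates 2 and 3 (0.08 and 0.05) went opposite ways. Kif3a and Kif3b, the core motor of intraflagellar transport, differed by 0.03 (SE 0.11) and -0.01 (SE 0.09). Kif9 (-0.06) and Kif27 (0.03) had means below the receptor gene percentile.

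Of the 4 other kinesins 0 passed in limma (1 lower and 0 higher at an unadjusted p under 0.05, beside 9.09% lower and 8.58% higher over all genes). Kif26b, a kinesin without motor activity that acts in embryonic kidney and in Wnt5a signalling, stood at 6.96, 6.90 and 6.79 in CD73+CD105- and at 6.59, 6.82 and 6.49 in CD73+CD105+ replicates 1, 2 and 3. The groups overlapped only through CD73+CD105+ replicate 2, and the difference was -0.25 (SE 0.10, limma adjusted p = 0.26), with -0.40 in its second probe set. Kif2a, a depolymerase of neurons and spindles, was at 9.94, 10.03 and 10.00 against 9.93, 9.88 and 10.01. Kif12 was at 5.81, 5.64 and 5.67 against 5.63, 5.84 and 5.75, and Kif26a differed by -0.01.

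**Figure D3:**
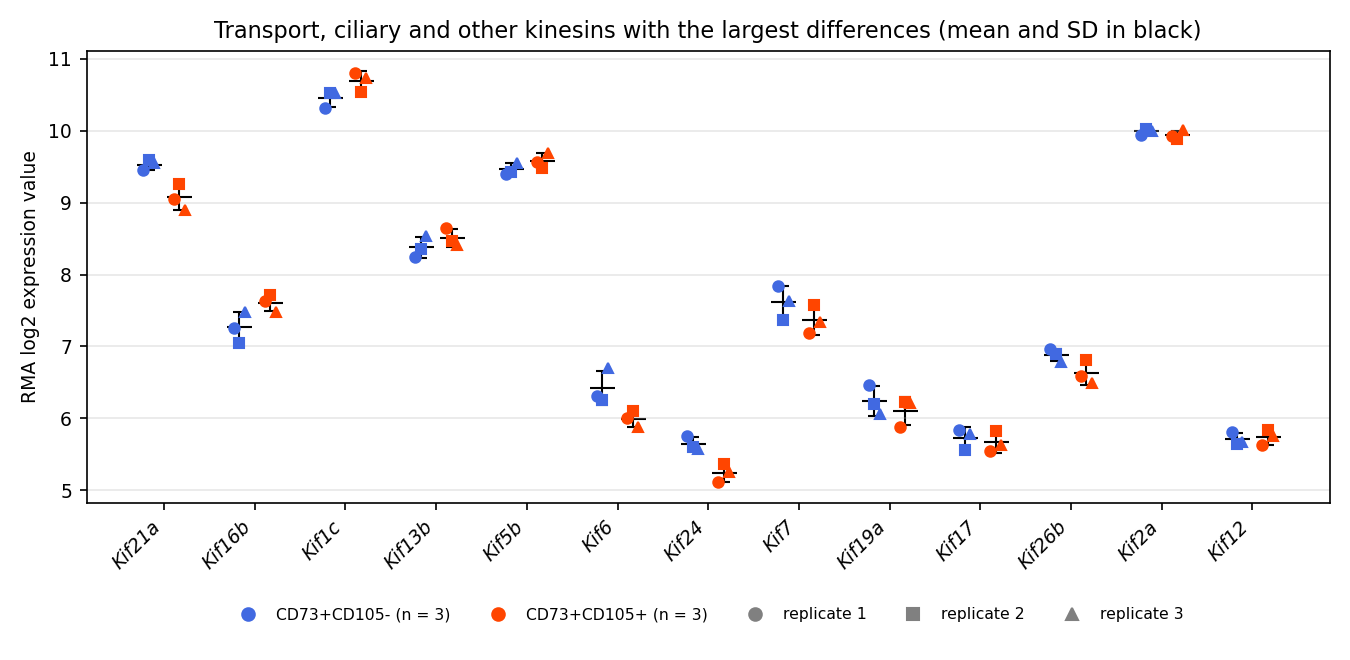
RMA log2 expression values (vertical axis) of the 5 transport, 5 ciliary and 3 other kinesins with the largest absolute differences, drawn as for the mitotic kinesins, with black lines for the mean and SD of the 3 arrays of a population. Kif21a, Kif6 and Kif24 are lower in CD73+CD105+ without overlap, and replicate 1 is the lowest CD73+CD105+ array in Kif7, Kif19a and Kif17.

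Related motor genes with other names behaved as follows. Of 6 measured genes, among them the light chains of conventional kinesin, 0 passed in limma. At an unadjusted p under 0.05 there were 2 lower and 1 higher (all genes: 9.09% lower and 8.58% higher). Cenpe, the kinetochore kinesin, was at 8.03 ± 0.25 in the first population and 7.62 ± 0.07 in the second (CD73+CD105- and CD73+CD105+; SD, n = 3 each), a difference of -0.41 (SE 0.13, limma adjusted p = 0.164). Stard9, a kinesin of centrosomes, differed by 0.61 (SE 0.21, limma adjusted p = 0.198), and by 0.35 when its 3 probe sets were averaged. Kifap3, the partner of Kif3a and Kif3b, differed by -0.00327, and the light chain gene Klc1 by 0.01. The unplaced Kifc1 and Kifc5b probe set was at 7.31, 6.96 and 7.15 in CD73+CD105- and at 7.04, 7.29 and 7.23 in CD73+CD105+ replicates 1, 2 and 3, a difference of 0.05. The counts and medians of the mitotic class depend on the name rule, which leaves out Cenpe, Stard9 and this probe set. They also depend on the placing of Kif2a (-0.05) among the other kinesins.

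A list of genes of mitosis, some of which work with mitotic kinesins, had a median difference of -0.27, but none of its members passed the threshold. Its 28 measured genes were those of the spindle, kinetochore and cytokinesis, with general cell cycle genes such as Cdk1, Ccnb2, Top2a and Mki67. Of these 28, 0 passed in limma, and at an unadjusted p under 0.05 there were 13 lower and 0 higher (all genes: 9.09% lower and 8.58% higher). In all, 26 of the 28 differences lay below 0 (55.6% of all genes), as many as after renewed quantile normalization or median centring, and 13 had separate groups with CD73+CD105+ lower (12.9% of all genes). In replicate 1 alone 20 of the 28 lay below 0 (11598 of all 19938 genes), with a median of -0.16. In replicates 2 and 3 alone 27 did (9975 of all genes), with a median of -0.34. Both held for 20 of the 28, against 32.2% of all genes. Nusap1, which bundles spindle microtubules, was at -0.65 (SE 0.17, limma adjusted p = 0.108), and Bub1b, a spindle checkpoint kinase, at -0.60 (SE 0.11, limma adjusted p = 0.0522). Prc1, the partner of Kif4, differed by -0.45 (SE 0.14), Racgap1, the partner of Kif23, by -0.07 (SE 0.21), and Tpx2, which recruits Kif11 to the spindle, by -0.06 (SE 0.09), all 3 named for those ties after their values were seen. Aurka (0.07) and Plk1 (0.26), kinases of mitotic entry, were the 2 above 0.

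Of 16 DNA replication genes 0 passed in limma, and their median was -0.06. At an unadjusted p under 0.05 there were 2 lower and 0 higher (all genes: 9.09% lower and 8.58% higher). Mcm5 and Mcm2, subunits of the replicative helicase, differed by -0.43 (SE 0.12) and -0.25 (SE 0.11).

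The genes that transport and ciliary kinesins work with had medians nearer to that of all genes. For the counts below, 0.466% of all genes fell by adjusted p in limma. At an unadjusted p under 0.05, 9.09% were lower and 8.58% higher. Of 13 dynein and dynactin subunits 0 passed (1 lower and 1 higher at an unadjusted p under 0.05 in limma), with a median of 0.05 and Dync1li2 and Dctn6 at 0.29 and 0.22. Of 8 cargo adaptors 0 passed (1 lower and 0 higher at an unadjusted p under 0.05 in limma), with a median of 0.04 and Grip1 and Madd at -0.23 and 0.19. Of 18 intraflagellar transport genes 1 fell, Ift52, a core subunit of the train that carries cargo into cilia, by 0.39 (SE 0.06, limma adjusted p = 0.0303), and the list median was -0.01. The Ift52 call was lost with the batch term (adjusted p = 0.126), with the replicate block (0.133) and when any 1 array was left out (0.0613 to 0.136). Ift22, which differed by 0.32 (SE 0.13), did not pass (limma adjusted p = 0.251).

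**Figure D4:**
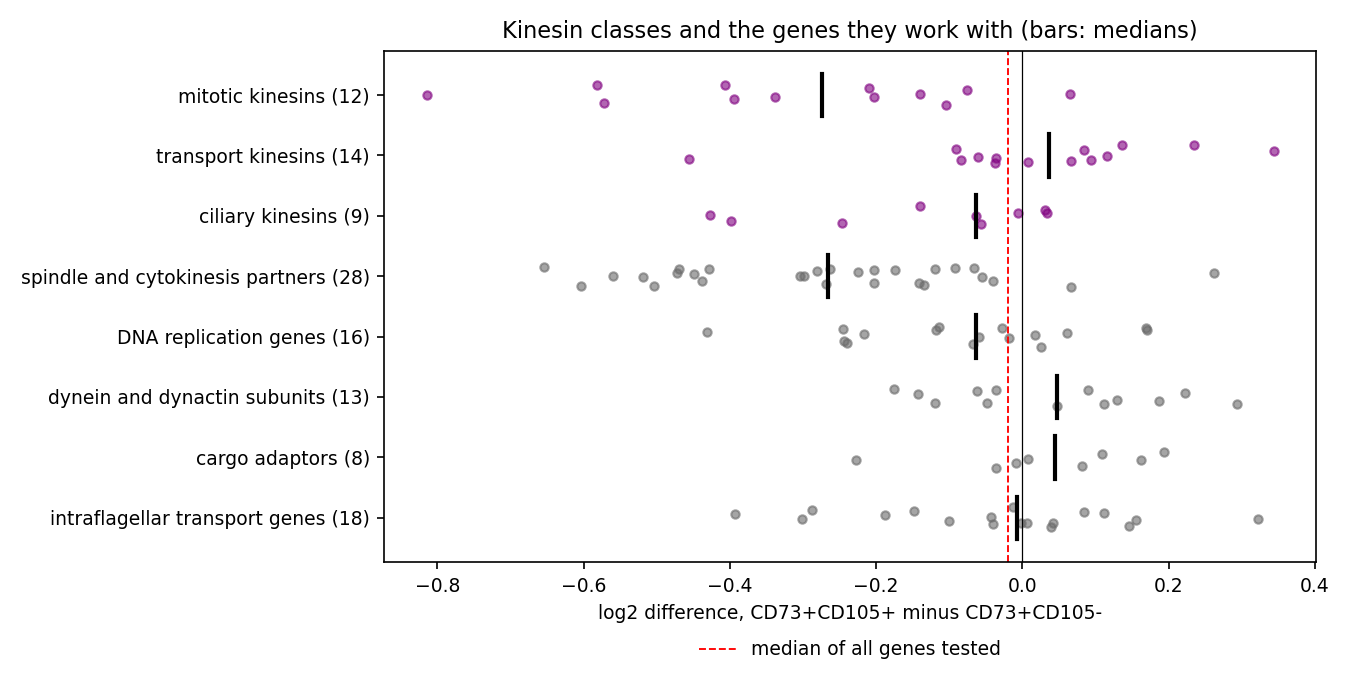
Differences in log2 value, CD73+CD105+ minus CD73+CD105- (horizontal axis), of single genes (points) in 3 kinesin classes and in 5 lists of related genes, with the number of genes in brackets, black bars at the medians and a dashed line at the median of all genes. The mitotic kinesins and the spindle and cytokinesis partners have their medians at -0.27 and -0.27, and the other 6 groups between -0.06 and 0.05.

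Of 8 marker lists of cell types, endothelium and marrow stroma had members that passed in limma. Over all genes 1.35% rose and 0.466% fell by the same rule. At an unadjusted p under 0.05 in limma, 8.58% of all genes were higher and 9.09% lower. Of 7 endothelial genes 7 rose by limma, and the log2 of their summed level was 8.41 to 8.76 in CD73+CD105- and 11.39 to 11.80 in CD73+CD105+ arrays. Of 8 cartilage genes 0 passed (6 lower at an unadjusted p under 0.05 in limma), and 8 of 8 differences lay below 0 (55.6% of all genes). The log2 of their summed level was 14.61 to 14.84 against 14.23 to 14.59. Of 6 marrow stroma genes 3 rose, with a log2 summed level of 12.04 to 12.22 against 12.72 to 12.76. Of 6 leukocyte genes 0 passed (2 higher at an unadjusted p under 0.05 in limma), the log2 summed level was 7.91 to 8.00 against 8.00 to 8.10, and the CD45 gene Ptprc had means of 4.71 and 4.70, under the receptor gene percentile. In the osteoblast (3 measured), erythroid (4), megakaryocyte (4) and neuron and glia (4) lists 0 genes passed in limma (over the lists together, 2 lower and 2 higher at an unadjusted p under 0.05). Their log2 summed levels overlapped between the populations, at 12.55 to 12.88 against 12.60 to 13.06 for osteoblast genes and 7.84 to 8.02 against 7.77 to 7.96 for erythroid genes. For megakaryocyte genes they were 7.52 to 7.67 against 7.57 to 7.78, and for neuron and glia genes 8.68 to 9.02 against 8.32 to 8.87. Sp7 and Ifitm5, both of osteoblasts, differed by -0.35 and 0.39. The part of these cell types in the kinesin differences was not tested.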

How the data were processed

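Biotin-labelled total RNA of 3 CD73+CD105- and 3 CD73+CD105+ sorted samples went on 1 array each, per the labels. The authors deposited log2 values summarised by RMA, as the submitters' processing notes name it. Its version, the probe annotation and any build are not given in the sources.

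The platform annotation gave 1 symbol for 21789 of 35556 probe sets, several for 1621 and, here, none for 12146. The 21789 gave 19938 genes, of which 999 had several probe sets and took the one with the highest mean. The fit was a two-sided limma test (version 3.58.1 under R 4.3.3), without a block or a filter on dim genes. The Benjamini-Hochberg adjustment ran over all 19938 genes, with a threshold of 0.05, and standard errors are the moderated ones. The fit was tested on simulated data with independent noise and planted changes larger than any kinesin difference. The simulation lacked the balance of the replicate 1 arrays against the others, so it cannot speak for the kinesin calls. The kinesin family, its classes and the other lists were chosen with earlier results of these data known.

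All 12 mitotic kinesins were named with their values, as were the 5 transport, 5 ciliary and 3 other kinesins with the largest absolute difference. Lists gave up to 4 members that passed, or, where fewer than 2 passed, the 2 with the largest difference. No label says that same-numbered arrays are pairs, so the numbers are not taken as pairs. Deviations of same-numbered arrays from their group means had Pearson's r over genes of -0.883, 0.00659 and 0.104 for replicates 1, 2 and 3. Genes are not independent replicates, and the value for replicate 1 follows from the balance of its arrays against the remaining 4. These correlations therefore cannot decide whether the numbers pair samples. Alternatives were the replicate block, a batch term for replicate 1, leaving out each array, 2 other scalings, a filter on dim genes, averaged probe sets, array weights, a trended robust prior and, added after the data were seen, replicates 2 and 3 only. RefSeq promoter windows (GRCm38.p6) were searched for TTTGAA and CCAAT on both strands.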

Additional observations from a re-analysis of the deposited data

How the results depend on the processing

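With the replicate number as a block, limma called 215 genes in place of 363, 1 kinesin (Kif4) in place of 3 and 0 pathway genes in place of 1 (Ift52) among 89. With the batch term for replicate 1 it called 101 genes, 0 kinesins and 0 pathway genes, and with replicates 2 and 3 only 29, 0 and 0. Array weights gave 1331 genes, 6 kinesins and 11 pathway genes. These kinesins were not all mitotic: beside Kif4, Kif11, Kif14 and Kif15 they were the transport kinesin Kif21a (limma adjusted p = 0.0315) and the ciliary kinesin Kif24 (0.0258). Pathway calls numbered 2 after renewed quantile normalization, 3 among genes above the receptor gene percentile and 2 with the trended robust prior. Leaving out 1 array gave 86 to 293 genes, 0 to 3 kinesins and 0 to 1 pathway genes. Without CD73+CD105- replicate 1, 2 or 3 or CD73+CD105+ replicate 1, 0 kinesins passed. The kinesins numbered 2 after centring on array medians and with the trended robust prior (Kif4 and Kif14), and with averaged probe sets (Kif4 and Kif11). With 1 array left out, the mitotic median ran from -0.38 (without CD73+CD105+ replicate 3) to -0.22, the transport median from -0.01 to 0.05 and the ciliary median from -0.15 to -0.03. Over the other settings the mitotic median reached -0.21 (averaged probe sets), the transport median 0.08 (genes above the receptor gene percentile) and the ciliary median -0.30 (replicate 1 alone), and the mitotic median was below 0 under every setting run. Differences of uncalled kinesins changed sign for Kif2b with array weights (-0.0305) and with 1 array left out (-0.20 to 0.27), for Kif12 likewise (-0.0471, and -0.0183 to 0.0859), and with replicates 2 and 3 only for Kif13b (-0.0017), Kif19a (0.0839) and Kif17 (0.054). Of 549 values of single named genes under alternatives, 497 kept their direction and side of the threshold, most of them for genes uncalled in the main fit. A call was lost in 35 values, all of Kif4, Kif11, Kif14 or Ift52, the called genes among them. In 9 values a call was gained, and in 8 the sign changed. RMA compresses differences near background, which limits the 10 kinesins at or below the receptor gene percentile. The causes were not tested.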
